A study of Homo sapiens with 18 samples.

Results

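The regions described here had a called ATAC-seq peak in V-K562 cells and in neither of the lines that express BASP1. ATAC-seq intervals of all 9 libraries were merged where they overlapped by at least 1 base, which gave 85549 regions. The regions were chosen by the deposited peak calls: a region was kept if it held a called peak of each of the 3 V-K562 libraries and no called peak of the 3 B-K562 and 3 G-K562 libraries. The rule found 1525 regions, 1.78% of all regions and 3.68% of the 41400 regions with a peak in all 3 V-K562 libraries. Under the same rule, 632 regions were found only in B-K562 and 1495 only in G-K562.

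K562 is a human leukemia cell line with erythroid features that lacks endogenous BASP1. V-K562 is the control line, B-K562 is K562 stably expressing wtBASP1, and G-K562 is K562 stably expressing BASP1-G2A, a mutant that cannot receive the N-terminal myristoyl lipid. Each line is a drug-selected stable derivative, so a difference between lines cannot be told apart from a difference between the selected cell populations. Every line was profiled in 3 biological replicates by RNA-seq and in 3 by ATAC-seq. BASP1 RNA checked the labels: its normalised read count (a count divided by a library's size factor) was 7, 5 and 7 in V-K562. It lay between 6189 and 6849 in the B-K562 libraries and between 8124 and 12538 in the G-K562 libraries.

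ATAC-seq marks DNA that a transposase can reach, and open DNA is typical of promoters and of enhancers, which can lie far from the gene they act on. In erythroid cells many enhancers are bound by GATA factors, and AP-1, the dimers of Fos and Jun proteins, binds enhancers of many cell types. BASP1 is a corepressor that WT1, a zinc finger transcription factor, brings to its target genes.

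Sequences are shown at several of these regions, or in the bases before the starts of their genes. They are shown because the matches to the GATA and AP-1 motifs set the regions apart in their share (below). The RNA of several of the genes concerned also differed between the lines. Capitals mark matches to the GATA motif, spelled AGATAA, or to the AP-1 motif, spelled TGANTCA, on either strand, and the remaining bases are in lower case. The first 5 are the 200 bases around the summit of the strongest V-K562-only region of a gene that held at least 3 such regions, on the plus strand of GRCh38. They lie at chr11:100863260-100863459 in ARHGAP42, chr2:225467228-225467427 in NYAP2, chr2:45812060-45812259 in PRKCE, chr7:111190908-111191107 in IMMP2L and chr5:21834908-21835107 in CDH12, all in introns.
ARHGAP42 intron: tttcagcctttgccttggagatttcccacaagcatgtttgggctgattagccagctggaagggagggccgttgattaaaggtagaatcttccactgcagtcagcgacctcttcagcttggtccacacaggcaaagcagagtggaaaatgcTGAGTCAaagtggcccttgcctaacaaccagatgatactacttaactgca
NYAP2 intron: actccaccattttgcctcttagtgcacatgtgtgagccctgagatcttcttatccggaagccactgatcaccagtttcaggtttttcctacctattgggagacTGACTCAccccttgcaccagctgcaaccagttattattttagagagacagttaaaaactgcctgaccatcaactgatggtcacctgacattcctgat
PRKCE intron: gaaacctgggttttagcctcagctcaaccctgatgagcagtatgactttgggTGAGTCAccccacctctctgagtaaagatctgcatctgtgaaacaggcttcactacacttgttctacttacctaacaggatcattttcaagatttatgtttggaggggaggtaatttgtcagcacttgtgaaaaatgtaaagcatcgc
IMMP2L intron: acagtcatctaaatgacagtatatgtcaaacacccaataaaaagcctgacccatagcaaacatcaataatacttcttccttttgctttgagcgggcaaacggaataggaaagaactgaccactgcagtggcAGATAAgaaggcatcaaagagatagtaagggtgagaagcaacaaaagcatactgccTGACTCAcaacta
CDH12 intron: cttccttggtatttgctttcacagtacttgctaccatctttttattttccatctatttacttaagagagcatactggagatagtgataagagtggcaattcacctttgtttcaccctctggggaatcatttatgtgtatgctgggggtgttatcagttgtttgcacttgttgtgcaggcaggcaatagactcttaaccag
A GATA match stood in 32.1% of the 200-base windows of the V-K562-only regions and in 18.7% of those of the other 39875 regions with a peak in all 3 V-K562 libraries. An AP-1 match stood in 28.9% and 17.4% of them. The windows of ARHGAP42, NYAP2 and PRKCE held an AP-1 match and that of IMMP2L held both motifs, while these letters were not in the CDH12 window. The 5 windows were picked from 13 that were read, of which 5 held an AP-1 match, 4 a GATA match and 5 neither.

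The next 6 are the 250 bases before the RefSeq transcription start (GRCh38.p14) of a gene with a V-K562-only region at its start, on the strand of the gene. A RefSeq promoter was matched for 19 of the 32 regions at a start. They are at chr12:85874045-85874294 (plus strand, NTS), chr12:39625933-39626182 (plus, C12orf40), chr2:112836780-112837029 (minus, IL1B), chr5:100903283-100903532 (minus, ST8SIA4), chr19:52453303-52453552 (plus, ZNF578) and chr11:100687038-100687287 (plus, ARHGAP42).
NTS start: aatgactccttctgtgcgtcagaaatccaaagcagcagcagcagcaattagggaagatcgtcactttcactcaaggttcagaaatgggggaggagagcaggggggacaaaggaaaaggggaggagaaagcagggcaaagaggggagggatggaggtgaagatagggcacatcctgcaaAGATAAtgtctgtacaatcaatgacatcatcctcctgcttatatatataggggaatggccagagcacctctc
C12orf40 start: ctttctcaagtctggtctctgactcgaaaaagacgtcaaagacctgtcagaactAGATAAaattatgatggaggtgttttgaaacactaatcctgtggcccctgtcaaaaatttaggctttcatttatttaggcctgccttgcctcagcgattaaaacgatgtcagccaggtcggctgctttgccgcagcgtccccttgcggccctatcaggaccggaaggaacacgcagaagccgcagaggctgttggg
IL1B start: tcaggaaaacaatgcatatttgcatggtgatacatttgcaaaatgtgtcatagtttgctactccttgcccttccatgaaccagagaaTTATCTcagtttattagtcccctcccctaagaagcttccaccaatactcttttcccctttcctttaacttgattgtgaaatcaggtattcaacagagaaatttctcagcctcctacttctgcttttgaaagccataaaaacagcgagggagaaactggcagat
ST8SIA4 start: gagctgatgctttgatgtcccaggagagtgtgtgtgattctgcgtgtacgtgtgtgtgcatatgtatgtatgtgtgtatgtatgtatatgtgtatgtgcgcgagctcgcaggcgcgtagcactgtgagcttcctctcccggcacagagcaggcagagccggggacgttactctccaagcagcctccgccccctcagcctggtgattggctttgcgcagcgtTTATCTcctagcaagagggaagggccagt
ZNF578 start: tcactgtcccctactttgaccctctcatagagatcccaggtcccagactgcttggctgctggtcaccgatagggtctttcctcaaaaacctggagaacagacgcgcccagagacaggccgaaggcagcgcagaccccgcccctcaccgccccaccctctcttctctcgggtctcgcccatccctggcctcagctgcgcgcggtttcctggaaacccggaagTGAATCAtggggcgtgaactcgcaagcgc
ARHGAP42 start: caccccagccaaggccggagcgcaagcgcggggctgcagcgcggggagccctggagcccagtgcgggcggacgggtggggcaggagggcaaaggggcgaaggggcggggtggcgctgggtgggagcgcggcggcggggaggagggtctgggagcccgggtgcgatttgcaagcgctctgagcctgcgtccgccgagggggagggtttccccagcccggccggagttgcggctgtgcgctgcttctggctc
Of the 19 matched promoters, 6 held a GATA match and 5 an AP-1 match, against 9.37% and 6.60% of all 27305 RefSeq promoters of the same length. These bases can reach outside the region, and the match printed for C12orf40 lies outside its region. In the window around the region's summit used for the motif shares below, C12orf40, CAB39L and ZNF474 had no GATA match. NTS, IL1B and ST8SIA4 had one there. Of the promoters with an AP-1 match, ABL2 had none in that window, while SLAMF9, ZNF534, ZNF578 and CAST did. A match is a description of the letters and not a bound site.

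The V-K562-only regions were weak peaks. Their summit pileup, the number of tags stacked at the highest point, had a median of 25 in each V-K562 library and ranged from 12 to 126. The mean over the 3 V-K562 libraries had a median of 25.3 (interquartile range 21.3 to 32.3), against 52.7 for the other regions with all 3 V-K562 peaks. The coefficient of variation between the V-K562 libraries had a median of 16.3% for the V-K562-only regions. They were also shorter, with a median of 344 bp against 484 bp. These values are the ones the peak call and the rule used, so they are given as a description with no test.

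V-K562-only regions were a smaller share of the stronger regions. They made up 23.8% (95% Wilson interval 21.3 to 26.4) of the regions with a mean V-K562 pileup of up to 20 tags, 11.5% of those between 20 and 30 tags and 0.564% of those between 50 and 75 tags. Of the 8154 regions over 100 tags, 3 were V-K562-only. Just outside the rule, 1213 regions had all 3 V-K562 peaks and a peak in 1 other library (median pileup 26.7), and 2522 regions had peaks in 2 V-K562 libraries only (median 21.5). The libraries themselves differed by line: V-K562 libraries had 53862 to 55570 intervals with a mean pileup of 40.3 to 40.9 tags. For B-K562 these were 47111 to 48905 intervals and 47.4 to 47.8 tags, and for G-K562 48408 to 51199 intervals and 50.7 to 52.2 tags. The part of these differences in the choice of regions was not tested. Tags outside called intervals were not in the data used, so the lack of a call leaves the tag level there unknown.

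**Figure D1:**
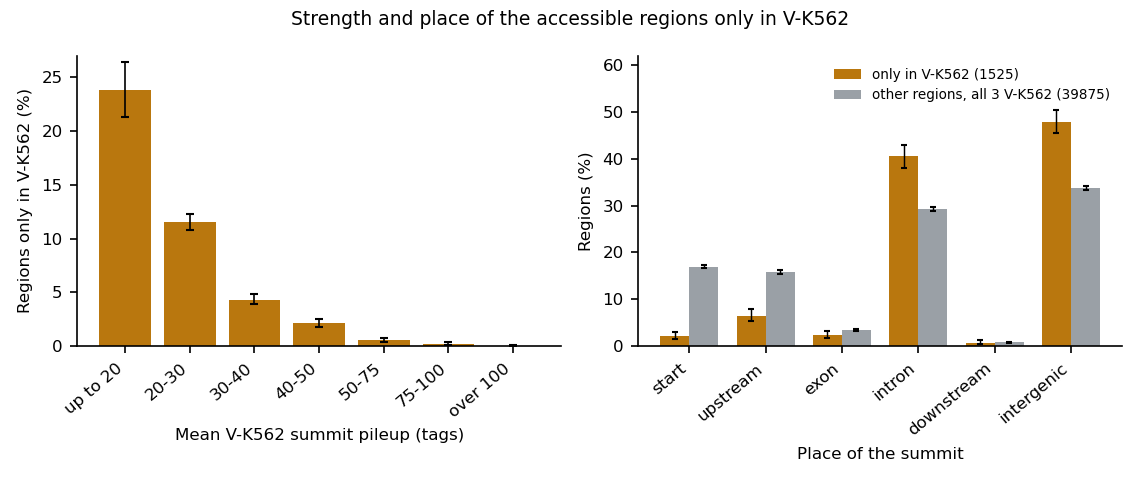
The left panel plots the percentage of regions with all 3 V-K562 peaks that were V-K562-only against their mean V-K562 summit pileup in tags, and the right panel the percentage of regions at each place of the summit for the 1525 V-K562-only and the 39875 other regions; bars are percentages and error bars 95% Wilson intervals. The share of V-K562-only regions was 23.8% in the weakest class and 0.564% between 50 and 75 tags, and 2.098% of them lay at a transcription start against 17.0% of the others.

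The strongest V-K562-only regions were few. Of the 1525 regions, 30 had a mean V-K562 pileup of at least 60 and 283 had at least 30 tags in every V-K562 library. The strongest lay between genes at chr21:9327596-9327903, with 118, 110 and 126 tags in V-K562 replicates 1, 2 and 3, and the second between genes at chr1:69551549-69552011, with a mean of 109.0 ± 13 tags (SD, n = 3). The third lay in an intron of ARHGAP42, at chr11:100863187-100863591, with 109, 97 and 97 tags. An intronic region of SNAP29, a membrane fusion protein, had 92, 91 and 104 tags (chr22:20865924-20866210). The fifth lay between genes at chr21:9008599-9009024, with a mean of 95 ± 6 tags (SD, n = 3). A region upstream of AIF1L, an actin-binding protein, had 97, 80 and 88 tags (chr9:131094608-131095008). These 6 regions were well above the median of the V-K562-only regions in every V-K562 library.

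Most V-K562-only regions lay away from promoters. Placed by the summit on protein-coding transcripts, 730 (47.9%) lay between genes, of which 248 were in a lncRNA gene, and 618 (40.5%) in introns. A further 99 (6.49%) lay within 5 kb upstream of a gene, 35 in exons, 11 within 1 kb downstream, and 32 (2.098%, interval 1.49 to 2.95) within 100 bp of a transcription start. Among the other regions with all 3 V-K562 peaks, 17.0% (16.6 to 17.3) lay at a start, 15.8% upstream, 29.2% in introns and 33.7% between genes. The intervals of the shares at a start did not overlap. Because weak peaks of any kind are seldom at starts, the shares were also taken among regions with a mean pileup of up to 30 tags, a split chosen after seeing the data: 1.71% (1.086 to 2.69) of 1051 V-K562-only regions and 4.56% (4.09 to 5.08) of 6930 others lay at a start. The median distance to the closest protein-coding start was 38376 bp for the V-K562-only regions and 10817 bp for the others.

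The share differed between chromosomes. As a share of the regions with all 3 V-K562 peaks, they made up 6.51% (5.38 to 7.85) on chromosome 4, 6.20% on chromosome 18 and 5.83% on chromosome 13, and 1.37% (0.953 to 1.96) on chromosome 17, 1.58% on chromosome 16, 1.69% on chromosome 14 and 1.77% on chromosome 19. The median GC content was 50.5% over regions of chromosome 4 and 57.1% over those of chromosome 17, and its part in the shares was not tested. The nearest B-K562 or G-K562 interval was a median of 11481 bp away. For 51 regions it was within 500 bp, and for 157 regions (10.3%) none was within 100 kb.

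Sequence around the summits differed from that of other V-K562 regions. In windows that reached 150 bases to either side of the summit, median GC content was 46.2% (interquartile range 42.5 to 50.5) at V-K562-only regions and 54.1% (47.5 to 63.1) at the other regions with all 3 V-K562 peaks. A GATA match was present in 39.0% (36.5 to 41.4) of the V-K562-only windows against 23.04% (22.6 to 23.5) of the others, and 23.5% of all 85549 regions. AP-1 matches stood in 32.6% (30.3 to 35.0) against 20.4% (20.01 to 20.8), and in 20.2% of all regions. Either motif was present in 61.0% of the V-K562-only windows and 37.9% of the others. All motifs were searched on both strands.

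The GC-rich motifs of promoters went the other way. GGGCGG, the letters read by SP and KLF factors, stood in 6.95% (5.78 to 8.34) of the V-K562-only windows against 33.2% (32.8 to 33.7), and in 24.1% of all regions. GCGNGGGCG, which EGR proteins and WT1 can read, stood in 2 of 1525 windows (0.131%) against 5.25%, and in 3.64% of all regions. The CTCF motif stood in 2.098% (1.49 to 2.95) against 8.29% (8.02 to 8.56), and in 8.21% of all regions. TTCNNNGAA, read by STAT factors, stood in 13.2% (11.6 to 15.04) against 8.55% (8.28 to 8.83), and in 8.77% of all regions.

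The comparison was repeated on summits in introns or between genes, where 1348 V-K562-only and 25088 other regions lay. There the shares were 39.5% (36.9 to 42.1) against 30.6% (29.99 to 31.1) for GATA, 33.2% (30.7 to 35.7) against 26.5% (25.98 to 27.1) for AP-1 and 1.85% (1.26 to 2.72) against 9.33% (8.97 to 9.69) for CTCF. Among such summits with a mean pileup of up to 30 tags they were 39.7% against 27.9% for GATA, 32.9% against 25.1% for AP-1 and 2.398% against 10.2% for CTCF. Median GC content was then 45.9% and 48.5%, and its part in the motif shares was not tested. The intervals of none of these 6 pairs overlapped, but regions of one genome are not replicates and the intervals cover counting error only.

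The remaining motifs searched were also counted. ETS factors read CCGGAA, which stood in 4.33% of the V-K562-only windows, 13.1% of the others and 8.97% of all regions, and CREB proteins read TGACGTCA, which stood in 0.393%, 1.47% and 0.947%. TEAD factors, the DNA-binding partners of YAP, read GGAATG, in 18.9%, 14.9% and 15.5%. RUNX factors of blood lineages read TGTGGT, in 20.9%, 19.5% and 21.9%, and YY1 reads AAGATGG, in 5.51%, 5.96% and 5.83%. Of the E-boxes of helix-loop-helix proteins, the one spelled CACGTG (E-box a) stood in 3.87%, 7.14% and 6.37%. The one spelled CAGCTG (E-box b) stood in 22.9%, 21.3% and 20.9%, and the one spelled CAGATG (E-box c) in 25.2%, 20.5% and 22.01%. The POU octamer ATGCAAAT stood in 1.57%, 1.69% and 1.75%, and the NF-kB letters GGGANTTCC in 1.44%, 1.71% and 1.60%. The IRF motif stood in 4.07%, 3.13% and 3.46%, the MAF or NFE2 motif, which contains the AP-1 letters, in 3.08%, 2.37% and 2.14%, and the NRF1 motif in 0 of 1525 V-K562-only windows, 0.762% of the others and 0.420% of all regions.

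**Figure D2:**
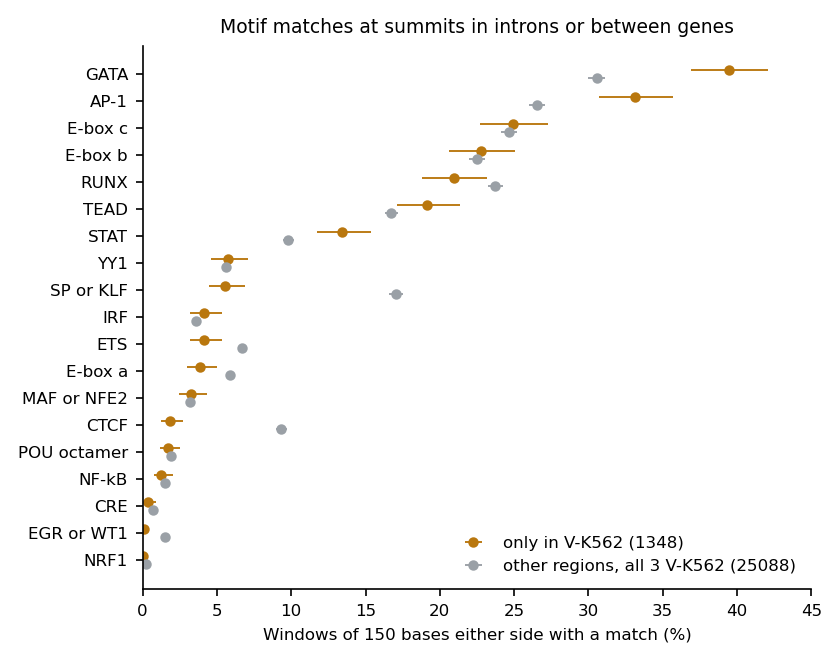
Percentage of windows of 150 bases either side of the summit with a match to each motif, on the horizontal axis, for 1348 V-K562-only regions and 25088 other regions with all 3 V-K562 peaks whose summits lay in introns or between genes; points are percentages, bars 95% Wilson intervals. Matches to GATA (39.5% against 30.6%) and AP-1 (33.2% against 26.5%) were more frequent at V-K562-only regions and CTCF (1.85% against 9.33%) less frequent.

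RNA was not used to choose the regions, so the RNA of nearby genes could be compared between the lines. A gene was taken as the closest gene of a region if it was the nearest in the RNA-seq tables within 5 kb. Of the 1525 regions, 907 had such a gene and 618 had none, which gave 798 genes: 717 with 1 region, 65 with 2 and 16 with at least 3. Genes were called lower or higher at an adjusted p of at most 0.05 in limma and a change of at least 2-fold, after dropping genes that did not reach 10 in 3 or more libraries. Genes that passed this filter only through V-K562 had to be lower in the other line, and those that passed only through the other line had to be higher. The counts therefore describe the genes that passed and not all 798. The 2 comparisons with V-K562 share the same V-K562 libraries and are given side by side. V-K562 values are those scaled together with B-K562 unless stated. Whether counting used the strand is not given in the sources used here, so genes that overlap another gene, as at 34 of the regions, are uncertain, among them TMEM133 inside ARHGAP42 and the antisense EPHA1-AS1. In these bulk samples, fewer cells that express a gene and less RNA per cell cannot be told apart.

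In B-K562, 158 of the 631 closest genes tested (25.04%, interval 21.8 to 28.6) were lower than in V-K562, beside a background of 14.1% lower among all 14958 genes tested. Higher genes numbered 18 (2.85%), beside a background of 6.46%. With a filter of at least 10 in every library, which takes out genes that passed through 1 line alone, 95 of these 158 stayed lower and 63 did not. Under that filter 1373 of 13559 genes were lower overall. The number of closest genes it left is not given here, so the 95 has no share to set beside that. Over the 631 genes the median log2 change was -0.20 (interquartile range -1.01 to 0.23), against 0.01 over all genes. Genes closest to other regions with all 3 V-K562 peaks, and to no V-K562-only region, were lower in 1449 of 11381 cases (12.7%). Genes closest to the 1213 regions just outside the rule with a peak in 1 other library were lower in 110 of 530 cases (20.8%), and genes closest to the 2522 regions in 2 V-K562 libraries only in 232 of 1028 cases (22.6%). The shares just outside the rule lay between that of the V-K562-only regions and the background.

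In G-K562, 125 of the 646 closest genes tested (19.3%, 16.5 to 22.6) were lower than in V-K562, beside a background of 10.3% among 15271 genes. Higher genes numbered 60 (9.29%), beside a background of 8.81%, which is near that background. The median log2 change was -0.11 against 0.00 over all genes. With at least 10 in every library, 86 of these 125 stayed lower and 39 did not, and 1009 of 13724 genes were lower overall. Between the lines that express BASP1, tested in a fit of all 9 libraries, 94 of 650 genes (14.5%) were lower in G-K562 than in B-K562 beside a background of 12.5%, and 127 (19.5%) were higher beside a background of 17.4%. Both shares lay within 3 percentage points of the background.

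The markers of K562 were checked beside these values. All 10 erythroid markers listed, GATA1, TAL1 and the globin genes HBG1 and HBG2 among them, had a value of at least 10 in every V-K562 library. Their normalised read counts summed to 126806 to 143174 in V-K562. The B-K562 libraries summed to 219434 to 223369 and the G-K562 libraries to 69809 to 75627. Summed levels of the 3 T lymphoid markers were 418 to 578, 193 to 198 and 184 to 255 in these lines, of the 4 B lymphoid markers 127 to 147, 53 to 73 and 97 to 144, and of the 4 fibroblast markers 1550 to 1863, 883 to 1701 and 1282 to 1402. The 3 epithelial markers summed to 1390 to 1887, 1495 to 1583 and 1132 to 1382, and the 2 monocyte markers, CD14 and LYZ, to 1316 to 1354, 1283 to 1422 and 3792 to 4319. MS4A1, which defines B cells, was at 0 in V-K562. The erythroid sum moved up in B-K562 and down in G-K562 and the monocyte sum up in G-K562, and the part of these shifts in the counts above was not tested.

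The share of lower genes differed with where the region lay. For the 32 genes with a V-K562-only region at their start, 18 of 30 tested (interval of the share 42.3% to 75.4%) were lower in B-K562 and 0 higher, with a median log2 change of -2.01. In G-K562, 17 of 31 (54.8%, 37.8 to 70.8) were lower and 3 higher, with a median of -1.75. For genes with another V-K562 region at their start, 8.87% of 6224 were lower in B-K562 and 6.45% of 6246 in G-K562. Upstream regions had 20 of 75 genes (26.7%) lower in B-K562 and 13 of 75 (17.3%) in G-K562, intronic regions 105 of 439 (23.9%) and 82 of 448 (18.3%), regions between genes 21 of 71 (29.6%) and 14 of 74 (18.9%), and exonic regions 2 of 26 (7.69%) and 5 of 28 (17.9%). The number of regions a gene held also went with the count in B-K562: 22.5% of genes with 1 region were lower, 38.6% of those with 2 and 10 of 15 (66.7%, 41.7 to 84.8) of those with at least 3, while in G-K562 these were 18.5%, 24.6% and 5 of 15 (33.3%, 15.2 to 58.3). Genes that passed the filter only through V-K562 could only be lower, so these shares test no direction for them. In B-K562 they included CDH12, KLHL4, MARCHF1, NYAP2 and TRDN of the genes with at least 3 regions. Of those with a region at the start, they included C12orf40, IL1B, ST8SIA4 and ZNF506. In G-K562 they included MARCHF1 of the genes with at least 3 regions. Of those with a region at the start, FSTL5, GDF2, NTS, ST8SIA4 and ZNF506 were of this kind in G-K562. IL10 passed there only through G-K562 and could only be higher.

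**Figure D3:**
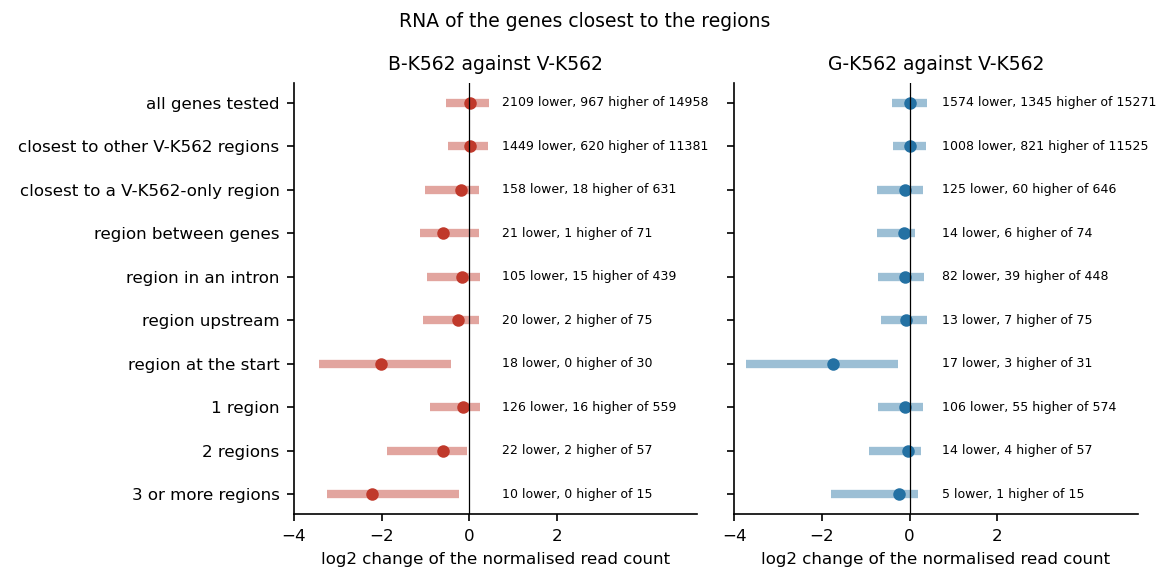
Median (point) and interquartile range (bar) of the log2 change of the normalised read count of B-K562 and G-K562 against V-K562, on the horizontal axis, for all genes tested and for genes closest to regions of each kind, with the counts of genes called lower and higher. Genes with a V-K562-only region at their start had medians of -2.01 in B-K562 and -1.75 in G-K562, against 0.01 and 0.00 for all genes.

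Among genes with a region at the start, the secreted factors NTS and GDF2 were lower in both lines, whereas IL1B and IL10 differed between them. NTS, the precursor of the peptide neurotensin, had normalised read counts of 225, 209 and 135 in V-K562, 15, 10 and 11 in B-K562, and 3, 2 and 1 in G-K562. The lines did not overlap, and the log2 changes from V-K562 were -3.86 ± 0.22 (SE, adjusted p = 2.9e-09 in limma) in B-K562 and -6.04 ± 0.31 in G-K562. GDF2, a ligand of the BMP family, had 81, 95 and 99 in V-K562, 20, 20 and 27 in B-K562, and 2, 1 and 1 in G-K562. It fell by 1.998 and 5.36 on the log2 scale. IL1B, an inflammatory cytokine, had 19, 19 and 20 in V-K562, 2, 0 and 5 in B-K562, and 17, 17 and 13 in G-K562. It was lower in B-K562 (-2.96 ± 0.56) and was not called in G-K562 (-0.32 ± 0.25, adjusted p = 0.27). IL10, an anti-inflammatory cytokine, had 6, 1 and 6 in V-K562, 1, 0 and 3 in B-K562, and 116, 75 and 94 in G-K562, where it was higher by 4.36 ± 0.44 on the log2 scale. NTS and GDF2 in G-K562 and IL1B in B-K562 passed the filter only through V-K562 and could only be lower. IL10 passed it only through G-K562 and could only be higher, so no adjusted p is given for these changes.

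PCDH10, a protocadherin, had 272, 280 and 324 in V-K562, 20 in every B-K562 library, and 20, 32 and 26 in G-K562, with changes of -3.80 ± 0.14 and -3.48 ± 0.18. ST8SIA4, a polysialyltransferase, had 53, 56 and 49 in V-K562, 0, 1 and 0 in B-K562, and is listed at 0 in every G-K562 library. MS4A4E, of the membrane-spanning 4A family, fell by 1.74 and 2.85 on the log2 scale. EVC, a protein of the primary cilium, had 371, 347 and 416 in V-K562, 91, 94 and 90 in B-K562, and 11, 17 and 18 in G-K562. The levels of EVC did not overlap between any pair of lines.

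Transcription factors and enzymes with a region at the start did not move as one group. ZNF506, a zinc finger protein, had 148, 151 and 159 in V-K562 and between 0 and 3 in every B-K562 and G-K562 library. SOX6, a transcription factor of erythroid and other lineages, had 224, 239 and 247 in V-K562, 50, 38 and 36 in B-K562, and 341, 375 and 407 in G-K562. SOX6 was lower in B-K562 (-2.50 ± 0.14, adjusted p = 2.8e-09) and 0.63 higher in G-K562 on the log2 scale, which was under the 2-fold criterion. ZNF578 and ZNF534, both zinc finger genes, fell in G-K562 by 2.18 and 1.40 on the log2 scale and were not called in B-K562 (-0.58 and -0.41). KLHL6, a BTB-kelch protein of B lymphocytes, had 983, 1017 and 1232 in V-K562, 224, 216 and 241 in B-K562, and 62, 61 and 68 in G-K562. AKR1C2, an aldo-keto reductase of steroid metabolism, had 943, 957 and 1065 in V-K562, 313, 361 and 327 in B-K562, and 280, 362 and 262 in G-K562. TRIM2, a ubiquitin ligase, fell by 2.90 in B-K562 and was 0.97 lower in G-K562, under the 2-fold criterion. CAB39L, a partner of the LKB1 kinase complex, fell by 1.90 in G-K562 and was not called in B-K562 (-0.48).

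The other starts were C12orf40, FBXO16, FSTL5, MYH15, USP13 and 9 genes with no call against V-K562. C12orf40 had 270, 240 and 202 in V-K562, 2, 4 and 5 in B-K562, and 27, 34 and 32 in G-K562. FSTL5, a follistatin-like protein, had 257, 267 and 279 in V-K562, 26, 11 and 1 in B-K562, and 1, 1 and 2 in G-K562, so the B-K562 libraries spread widely. FBXO16, an F-box protein, fell by 3.25 and 2.85 on the log2 scale. MYH15, a myosin heavy chain, had 126, 159 and 238 in V-K562, 10, 15 and 18 in B-K562, and 660, 622 and 819 in G-K562. USP13, a deubiquitinase, was 1.29 ± 0.12 higher in G-K562 (adjusted p = 2e-06) and was not called in B-K562 (-0.49). ABL2, AIF1, CAST, CPEB1, IQGAP2, LRBA, SIAH1 and ZNF474 were tested and not called in either comparison, with changes between -0.78 and 0.88, and SLAMF9 was too low to be tested. At these 8 genes the V-K562-only region at the start stood beside an RNA change of less than 2-fold.

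**Figure D4:**
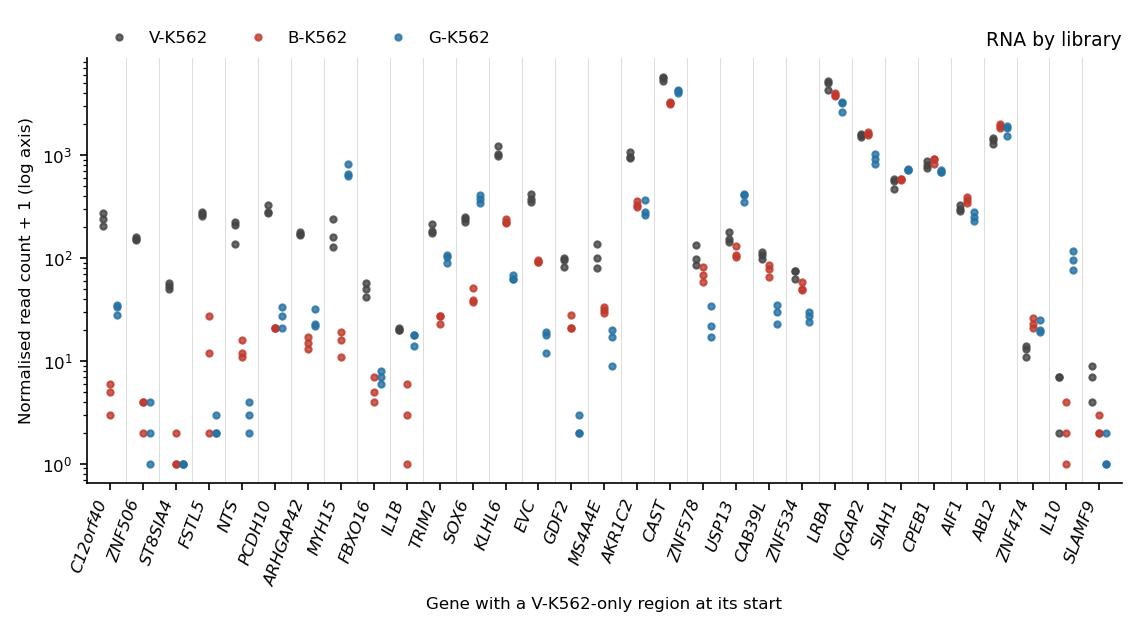
Normalised read count + 1 on a log axis for genes with a V-K562-only region at their start, with a point for each of the 3 V-K562, 3 B-K562 and 3 G-K562 libraries; genes are ordered by their change in B-K562, with IL10 and SLAMF9, too low to be tested there, last. NTS, PCDH10 and ARHGAP42 were lower in every library of both BASP1 lines, whereas MYH15 and IL10 were highest in G-K562.

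ARHGAP42 held 8 V-K562-only regions, the highest number of any gene, and no other region with all 3 V-K562 peaks. The region at its start (chr11:100687226-100687557) had 28, 26 and 21 tags, against 109, 97 and 97 tags for the intronic region printed above. Its RNA was 166, 178 and 170 in V-K562, 12, 16 and 14 in B-K562, and 21, 22 and 31 in G-K562. The changes were -3.53 ± 0.17 (adjusted p = 5.5e-10) and -2.79 ± 0.18 (adjusted p = 1e-07), and B-K562 and G-K562 differed by 0.74, under the 2-fold criterion. No B-K562 or G-K562 peak was called between 1666.9 kb before and 1227.5 kb after the start of the gene. That stretch held 12 V-K562-only regions and 4 regions in 1 or 2 V-K562 libraries. It also holds PGR, the progesterone receptor, which was named after its values were seen, with 312, 355 and 346 in V-K562, 12, 10 and 11 in B-K562, and 4, 10 and 8 in G-K562. PGR fell by 4.82 and 5.44 on the log2 scale. TMEM133, in the same stretch, was also lower, with changes of -3.72 and -2.83. CNTN5, a contactin, also lies there and went the other way in G-K562. It had 14, 20 and 22 in G-K562 against 8, 8 and 5 in V-K562 as scaled with G-K562. CNTN5 was higher by 1.30 in G-K562 and was not tested in B-K562. It passed the filter only through G-K562, so it could only be higher there.

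**Figure D5:**
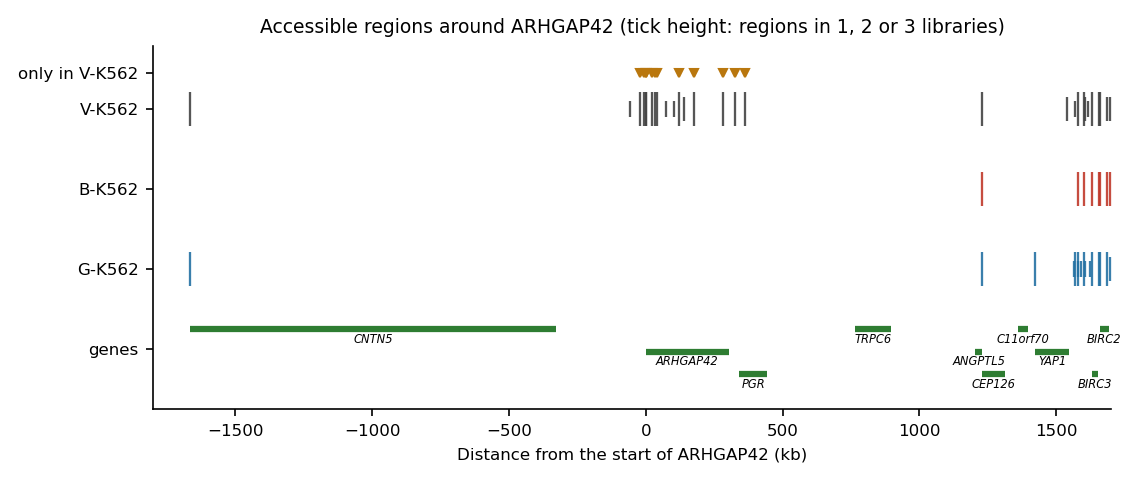
Accessible regions of the 3 lines by distance in kb from the start of ARHGAP42, with a tick for each region (taller ticks for regions in more libraries), triangles for V-K562-only regions and bars for protein-coding genes. The 12 triangles lie around ARHGAP42 and PGR, in a stretch with no B-K562 or G-K562 peak from 1666.9 kb before to 1227.5 kb after the start.

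Of the other 15 genes with at least 3 regions, CDH12, KLHL4, NYAP2 and TRDN also had no region with all 3 V-K562 peaks that was shared with another line. CDH12, a cadherin, had 38, 40 and 37 in V-K562, 6, 2 and 4 in B-K562, and 9, 10 and 3 in G-K562, with changes of -3.06 ± 0.34 and -2.41 ± 0.37. TRDN, the muscle protein triadin, fell by 3.41 in B-K562 and 1.17 in G-K562. NYAP2, a neuronal adaptor of PI3 kinase, fell by 2.23 in B-K562 and was 0.97 lower in G-K562, under the 2-fold criterion. KLHL4, a kelch protein, had 14, 18 and 22 in V-K562, 0, 1 and 0 in B-K562, and 72, 47 and 69 in G-K562. In G-K562 it was 1.69 ± 0.24 higher than in V-K562 (adjusted p = 6.7e-05) although its 3 regions had no G-K562 peak.

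MARCHF1, a ubiquitin ligase that acts on MHC class II, held 3 V-K562-only regions among 4 with all 3 V-K562 peaks. It had 219, 217 and 294 in V-K562, 1, 2 and 0 in B-K562, and 0, 3 and 0 in G-K562, with changes of -7.06 ± 0.35 and -7.28 ± 0.47. SOX6 held 6 regions of 9. ARHGAP26 held 5 regions of 16, and had 184, 204 and 238 in V-K562, 39, 39 and 34 in B-K562, and 216, 201 and 234 in G-K562. It fell by 2.45 in B-K562 and did not pass the test in G-K562 (0.04 ± 0.12, adjusted p = 0.80). PRKCE, protein kinase C epsilon, and HIVEP3, a zinc finger protein, fell in B-K562 by 1.76 and 1.45 and were not called in G-K562 (-0.76 and -0.04).

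CERS6, a ceramide synthase, went the other way between the lines. It held 3 V-K562-only regions of 10, and had 1389, 1448 and 1424 in V-K562, 2191, 2117 and 2195 in B-K562, and 131, 165 and 146 in G-K562. The change was 0.61 ± 0.05 in B-K562, under the 2-fold criterion, and -3.29 ± 0.09 in G-K562 (adjusted p = 2.7e-10). Of its regions with all 3 V-K562 peaks, 7 had a B-K562 peak and 3 a G-K562 peak. CEP85L, CUX1, IMMP2L and REV3L, which encode a centrosomal protein, a homeodomain factor, a mitochondrial peptidase subunit and the catalytic subunit of DNA polymerase zeta, held 3 regions each and were not called against V-K562, with changes between -0.26 and 0.63. LINC00535, a lncRNA with 5 regions, had values of 7 or less in every library and was not tested.

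ARHGAP42 lay in the run with the most V-K562-only regions. Runs with at least 3 V-K562-only regions and no B-K562 or G-K562 interval between them, a definition made after seeing the data, numbered 26 and held 102 of the 1525 regions. Runs defined the same way for B-K562-only and G-K562-only regions numbered 4 and 20. Of the genes in the V-K562 runs that were tested, 17 of 25 were lower and 2 higher in B-K562, and 14 of 25 were lower and 2 higher in G-K562. Some of the lower genes passed the filter only through V-K562 and could only be lower. In B-K562 these were CDH12, KCNT2, KLHL4, LOC102467226, MARCHF1, NYAP2, TMEM133 and TRDN. In G-K562 they were LOC102467226, MAGEB10, MARCHF1, PRR16 and TMEM133. Over all genes tested, 14.1% were lower and 6.46% higher in B-K562, and 10.3% lower and 8.81% higher in G-K562. Genes there were named after their values were seen. PRDM9, a histone methyltransferase of meiosis, had 169, 192 and 265 in V-K562, 21, 23 and 21 in B-K562, and 13, 19 and 23 in G-K562. PRR16 had 195, 176 and 163 in V-K562, 44, 38 and 50 in B-K562, and 1, 1 and 0 in G-K562. KCNT2, a sodium-activated potassium channel, had 49, 49 and 30 in V-K562, is listed at 0 in every B-K562 library, and had 84, 87 and 87 in G-K562. TRIM61, a TRIM family gene of the run that holds MARCHF1, rose by 2.63 in B-K562. NEK7, CEP44 and FBXO8, which encode a kinase, a centrosomal protein and an F-box protein, were not called in B-K562 (-0.72, -0.76 and -0.42). In G-K562, CEP44 fell by 1.27 and NEK7 was not called (-0.60). FBXO8 was lower there, with 237, 260 and 306 against 580, 532 and 543 in V-K562 as scaled with G-K562.

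Apart from the genes above, large falls among closest genes were spread over genes of different roles. In B-K562 they included APBB1IP, a Rap1 effector of leukocytes, with 165, 160 and 145 in V-K562 against 4, 3 and 0, and SLC9A7, a sodium and potassium exchanger, with 126, 169 and 207 against 1, 2 and 5. CSMD3, a large membrane protein, had 76, 92 and 99 in V-K562 and is listed at 0 in every library of both BASP1 lines. PTPRC, the leukocyte phosphatase CD45, held an upstream and an intronic region and had 2491, 2497 and 2429 in V-K562, 83, 80 and 85 in B-K562, and 353, 357 and 307 in G-K562. PTPRC fell by 4.89 ± 0.07 and 2.89 ± 0.07. In G-K562, PTPN7, a phosphatase of MAP kinases, fell by 5.35 ± 0.11 (4392, 4229 and 3633 in V-K562 as scaled with G-K562, against 107, 82 and 109).

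The largest rises were in genes that likewise had a region without a peak in the line concerned. In B-K562, PPP2R2C, a regulatory subunit of the phosphatase PP2A, rose by 3.51 ± 0.32, PLEKHA7, a junction protein, by 2.04 ± 0.13, and LIN28B, an RNA-binding protein that blocks let-7 processing, by 1.64 ± 0.08. LIN28B had 1622, 1436 and 1217 in V-K562, 4428, 4260 and 4580 in B-K562, and 2144, 1919 and 1952 in G-K562. FCER1A, a chain of the IgE receptor, rose by 1.71 in B-K562 and is listed at 0 in every G-K562 library. TGFB1I1, a focal adhesion protein, rose by 1.64 in B-K562 and fell by 1.32 in G-K562. In G-K562, SLC22A11, an organic anion transporter, rose by 4.51 ± 0.60 (4, 0 and 7 against 93, 64 and 76), MAML3, a Notch coactivator, by 3.62 ± 0.15, SLC24A2, a calcium exchanger, by 3.36 ± 0.12, and CHODL, a membrane lectin, by 3.13 ± 0.33. SLC22A11 passed the filter there only through G-K562 and could only be higher. VDR, the vitamin D receptor, held an intronic region (chr12:47871640-47872009, 50, 45 and 39 tags) 802 bp from the closest B-K562 or G-K562 interval. Its RNA was 363, 366 and 414 in V-K562, 175, 201 and 170 in B-K562, and 257, 255 and 281 in G-K562, a fall of 1.06 in B-K562 and a change of -0.55, not called, in G-K562.

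Gene lists were described by their counts, beside the same backgrounds of 14.1% lower and 6.46% higher in B-K562 and 10.3% and 8.81% in G-K562. Most lists were matched by the start of gene symbols and so hold some genes of another kind, such as ABLIM3, an actin-binding protein lower in B-K562, among the kinases, GRIP1, a scaffold protein lower in both lines, among the ion channels, and 4 ATPase genes among the transporters. None of the 33 erythroid and globin genes, 19 megakaryocyte genes and 20 myeloid genes listed was the closest gene of a V-K562-only region. Only 798 of the 28395 genes were, so a count of 0 in lists this short says nothing particular to them. Of 25 genes matched by symbols of signalling kinases and phosphatases, 8 of 23 tested were lower and 2 higher in B-K562, and 6 of 22 lower and 0 higher in G-K562 (median -0.08 and -0.25). The MAP kinase phosphatases DUSP4 and DUSP10 were lower in B-K562, while DUSP16 was not called there (0.31). DUSP4 had 247, 217 and 198 in V-K562, 34, 36 and 23 in B-K562, and 20, 23 and 18 in G-K562, and DUSP10 fell by 1.30 in B-K562 and was 0.82 lower, under the criterion, in G-K562. Of 14 genes matched by ion channel symbols, 5 of 10 tested were lower in B-K562 and 3 lower and 2 higher in G-K562. GRIK1, a kainate receptor subunit, fell by 3.18 ± 0.15 in B-K562 and did not pass in G-K562 (-0.10), while GRID1, another glutamate receptor, fell by 4.45 ± 0.16 in G-K562 and did not pass in B-K562 (-0.04). ITPR2, an intracellular calcium channel, rose by 2.28 in G-K562.

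Of 34 genes matched as transcription factors, 6 of 31 tested were lower and 0 higher in B-K562, and 5 of 32 lower and 2 higher in G-K562. ETS1, a lymphoid ETS factor, had 782, 831 and 1010 in V-K562, 119, 111 and 114 in B-K562, and 184, 129 and 237 in G-K562. SOX5, a partner of SOX6, fell by 2.96 in B-K562 and was 0.90 higher, under the criterion, in G-K562, and ESR2, estrogen receptor beta, fell by 2.33 in G-K562. Of 18 genes matched by transporter symbols, 5 of 15 tested were lower in B-K562, SLC27A1 and SLC7A7 among them (-1.24 and -1.07), and 1 of 16 lower and 2 higher in G-K562. Of 10 chromatin regulators tested, 0 were called against V-K562 by limma in either line, with medians of 0.07 and 0.03.

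The shorter lists had few members. Of 8 matrix and adhesion genes, 3 were tested in B-K562 and 4 in G-K562. CDH12 and PCDH10 were the 2 called lower in B-K562, and in G-K562 COL25A1, a transmembrane collagen, fell by 2.80 as well while ITGA8, an integrin subunit, rose by 1.70. Of 4 genes matched by axon guidance symbols, 3 of them tested, EPHB2, an ephrin receptor, fell by 2.26 in B-K562 and 1.44 in G-K562, and EPHA1-AS1, an antisense RNA, was higher by 1.38 in G-K562. The interferon list met only TRIM genes, matched by symbol, and of the 3 tested TRIM2 was lower in B-K562 and 0 were called in G-K562. PTPRF, a receptor phosphatase, fell by 1.67 in G-K562, and PRKAR1B, a regulatory subunit of protein kinase A, rose by 1.48 in B-K562.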

How the data were processed

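RNA-seq (TruSeq stranded mRNA, paired-end) and ATAC-seq covered 3 lines, with 3 biological replicates a line for each assay. Per the study's methods, ATAC-seq reads were aligned with BWA-MEM, duplicates were removed and peaks were called with MACS2, and its quality summary gives the same number of tags for peak calling in every library. The deposited ATAC-seq intervals carry a signal, the pileup of tags, on GRCh38. RNA-seq reads were aligned with STAR and counted with Subread. The authors divided the counts by DESeq2 size factors and deposited them rounded to whole numbers, so these values are treated as a score on a normalised scale and not as raw counts. Their totals were 32074895 to 33138341 per library in the table of V-K562 and B-K562 and 32342190 to 33229588 in that of V-K562 and G-K562, and sequencing depth cannot be read from them. Deposited columns of fold changes and p-values were not used.

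Intervals were merged over the 9 libraries and placed by summit on GENCODE 44. log2(value + 1) was tested with limma 3.58.1 in R 4.3.3 (trend, Benjamini-Hochberg over all genes tested, at least 10 in at least 3 libraries). Fold changes are on that scale, which understates low genes. The BASP1 lines were compared with each other in 1 fit of 9 libraries, for which the B-K562 table was brought to the scale of the other by a factor of 1.017, taken from the V-K562 libraries that both tables hold. The fit was tested on simulated data. Shares carry 95% Wilson intervals, which cover counting error only. Scripts ran in Python 3.11.15.

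Gene lists other than the erythroid, megakaryocyte, myeloid and immediate early ones were matched by the start of gene symbols. The regions and gene lists were chosen with earlier results of these data known. Genes were named by rule: called genes with a region at the start, those closest to the 6 strongest regions, or with at least 3 regions, the 5 largest changes each way in each comparison with V-K562 and the 3 largest between G-K562 and B-K562, up to 4 called genes per list, and VDR. Other genes named were chosen after their values were seen. A few items are not reported here. Alternatives covered merging, peak strength, filters, pseudocount, scaling, the model, gene distance and leaving out libraries.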

Additional observations from a re-analysis of the deposited data

Results flagged for a closer look

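Among the closest genes of V-K562-only regions, 27 were called lower in one BASP1 line and higher in the other against V-K562, each at the 2-fold criterion, with a difference between B-K562 and G-K562 that passed limma's test in the fit of all 9 libraries. These genes were chosen for that pattern after their values were seen. How many of all genes tested show the pattern was not counted, so the 27 has no background beside it. Opposite calls at 2-fold already set the BASP1 lines apart, so the test between them adds little. Of the closest genes, 158 were lower and 18 higher in B-K562, and 125 and 60 in G-K562. The part of these counts in the split by direction was not tested. The differences are log2 values of G-K562 minus B-K562, and 21 were higher and 6 lower in G-K562.

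The largest differences among the genes higher in G-K562 were those of SLC24A2 (6.08), KLHL4 (5.63), MYH15 (5.52) and SCN9A (5.17), a voltage-gated sodium channel. ZBTB8A, a zinc finger protein, differed by 4.45, AQP9, a glycerol and water channel, by 4.42, TOX2, an HMG-box protein, by 4.21, THSD4 by 4.17 and NAV2 by 4.12. APOL6 stood at 3.73, C5AR1, the receptor of complement C5a, at 3.58, PSMB9, a subunit of the immunoproteasome, at 3.04, and LGALS3BP, a secreted galectin ligand, at 2.70. The others higher in G-K562 were ST6GALNAC3 at 3.60, ADGRB3 at 3.38, SIPA1L2 at 3.31, FAM174B at 3.06, COLGALT2 at 2.92, GNG7 at 2.82, TTLL7 at 2.78 and CLIP4 at 2.34.

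The 6 genes lower in G-K562 were FCER1A (-5.82, listed at 0 in every G-K562 library, so the value depends on the pseudocount), TBC1D4 (-5.58), a Rab GTPase-activating protein of glucose transport, PLEKHA7 (-4.47), EPB41L4A (-4.28), SYT13 (-3.62) and TGFB1I1 (-2.95). Groups of 3 libraries were not examined for single outlying samples.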

How the results depend on the processing

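The number of V-K562-only regions moved with the strength asked of a peak: 283 with at least 30 tags in every V-K562 library and 30 with a mean of at least 60. Leaving out 1 library gave 1686 to 2465 regions, and without V-K562 replicate 1, 2 or 3 there were 2465, 2313 and 2319, since fewer libraries then had to hold a peak. Within 1 kb of a start there were 61.

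With at least 10 in every library, 95 closest genes were lower in B-K562 than in V-K562, and 73 had more RNA in G-K562 than in B-K562. This filter takes out genes low in 1 line alone: 63 of the 158 lower calls in B-K562 were lost, while all genes tested went from 14958 to 13559. Without V-K562 replicate 1, 2 or 3, 42, 43 and 48 of the 158 were lost, against 3, 6 and 3 without B-K562 replicate 1, 2 or 3. The filter still asked for at least 10 in 3 libraries. Without a V-K562 library, genes that reached 10 only in V-K562 were therefore not tested and count as lost. How many of the losses were of this kind was not counted. By adjusted p alone, 315 were lower and 182 higher of 631 in B-K562, and 278 and 191 of 646 in G-K562. In G-K562 against B-K562 they were 252 and 261 of 650. The shares of all genes by adjusted p alone are not given here, so these counts have no background beside them. With the 2-fold criterion, regions with at least 30 tags in every V-K562 library had 39 lower and 5 higher of 143 genes in B-K562. In G-K562 they had 27 and 16 of 146, and in G-K562 against B-K562 17 and 33 of 146. Leaving out 1 library gave 112 to 159 lower and 16 to 22 higher in B-K562, up to 128 and 47 to 65 in G-K562, and 90 to 94 and 116 to 130 between them. The other 110 of 130 counts stayed within 1.5 times. In windows of 50 bases to either side of the summit, GATA stood in 20.5% of V-K562-only windows against 11.6% and AP-1 in 19.5% against 11.3%.

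Same-numbered libraries did not deviate together (r from -0.08 to 0.14), so the numbers do not pair them. With a replicate block the counts were 158 lower and 18 higher in B-K562, 125 and 60 in G-K562, and 94 and 127 between them. Of 3148 values of named genes that were still tested under an alternative, 0 reversed and 21 lost the call, over 10 gene comparisons. A named gene that the filter dropped under an alternative gave no value, so its call is not among those lost. Trimmed mean of M values scaling moved the median of all genes by 0.03 in B-K562 and 0.01 in G-K562.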
